A study of Mus musculus with 6 samples.

Results

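The levels of 10 circadian clock genes were compared between *Phf2* KO and control C2C12 cells: the activators *Arntl* and *Clock*, the repressors *Per1*, *Per2*, *Per3*, *Cry1* and *Cry2*, the nuclear receptors *Nr1d1* and *Nr1d2*, and the output factor *Dbp*. They were taken by symbol from the deposited matrix of 55401 genes, where each stood on 1 row, and all 10 were among the 17310 genes that passed the filter on low counts. None of the 10 had an adjusted p under 0.05, where 6.48% of the genes tested did, and 8.43% of the 5930 genes whose mean level was within the range of the members. The 95% intervals of all 10 lay within a 1.5-fold change in either direction, as did those of 60.9% of the genes tested. The intervals of 8 lay within a 1.25-fold change, against 41.6% of the genes tested and 73.6% of those in the range of the members. In that range the share within 1.5-fold was not computed, but it is at least the 73.6% within 1.25-fold. *Dbp* had the highest estimate and *Cry1* the lowest, with log2 fold changes of 0.23 and -0.15.

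The cells were C2C12, myoblasts of a mouse line whose cells fuse to form myotubes, in DMEM with 2% horse serum at 2 d post differentiation. The *Phf2* KO cells had received 4 pooled plasmids with guides against *Phf2*, and the control cells, labelled wild type, a plasmid with Cas9, ZsGreen1 and a guide that matches no mouse sequence. Both were pools of sorted cells and not single clones, and the 3 libraries of each group were wells of 1 experiment, so that the p-values measure the spread between wells and a difference between the pools cannot be told apart from the loss of *Phf2*. All libraries were from this 1 stage, and the hour of harvest is not given in the sources used here. For a gene with a daily rhythm, a shift of phase and a change of mean level cannot be told apart in such samples.

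In the mammalian clock, CLOCK and ARNTL (also called BMAL1) bind as a pair to E-boxes and switch on the *Per* and *Cry* genes, whose proteins return to the nucleus and inhibit the pair. The same pair switches on *Nr1d1* and *Nr1d2*, which encode REV-ERB alpha and REV-ERB beta, repressors of *Arntl* through the ROR response element, and *Dbp*, which encodes an activator that binds D-boxes. The loop runs in skeletal muscle fibers and in cultured cells, where serum and a change of medium can set its phase.

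Total estimated counts were between 52526109 and 67502788 per library. A read pair of 150 bp reads added about 4 to these counts, and the members had between 678 and 5884 counts in a library. *Phf2*, the targeted gene, was measured at 102, 95.5 and 105 CPM (counts scaled to library size by TMM) in control replicates 1, 2 and 3 and at 41.1, 37.6 and 38.6 CPM in *Phf2* KO replicates 1, 2 and 3. This is a log2 fold change of -1.37, with a standard error of 0.055 and an adjusted p of 8.32e-09. All adjusted p-values below are from the quasi-likelihood test of edgeR, with the method of Benjamini and Hochberg, unless another fit is named. Of 7 myotube markers (*Myog*, *Myh3*, *Actc1*, *Ckm*, *Tnnt3*, *Acta1* and *Mymk*), all 7 were detected, their summed level was 6809 to 8103 CPM in control and 5476 to 6156 CPM in *Phf2* KO libraries, and 4 fell past the threshold. The part of this difference in the values of the clock genes was not tested, and in bulk RNA fewer myotubes and less of these transcripts in each cannot be told apart. At a later stage of differentiation than these libraries, the study found no significant difference in myotube diameter, total myotube area or fusion index. Of 6 markers of myoblasts and dividing cells (*Myf5*, *Pax7*, *Mki67*, *Top2a*, *Ccnb1* and *Id1*), 5 had estimates above 0 and 0 passed the threshold, with summed levels of 204 to 224 CPM in control and 208 to 229 CPM in *Phf2* KO libraries. Markers of other cell types were near 0, with summed levels of at most 0.824 CPM for 4 adipocyte genes, 0.537 CPM for 3 endothelial genes, 1.88 CPM for 3 leukocyte genes and 0.996 CPM for 3 neuronal genes.

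The start regions of the members are shown where they held a clock element, since the factors of the loop act on DNA through such elements. The 250 bases before each RefSeq start (GRCm38.p6, the assembly of mm10) were searched on both strands for the E-box CACGTG, the related sequence CACGTT, the D-box TTATGTAA, the core of the ROR element TAGGTCA and the cAMP response element TGACGTCA, none of which is contained in another. The table held 13 such windows for 9 of the 10 members, without *Per2*. The E-box was found for 2 members, the related sequence for 3 and the D-box for 1, and the other elements for 0. Bases past each start and further upstream were not searched, so these counts cover the windows only. They do not show that a member, such as *Arntl*, lacks an element elsewhere. Among all 32851 windows of the table, the E-box was in 6.02%, CACGTT in 3.85%, the D-box in 0.819%, the ROR core in 2.23% and the cAMP element in 1.55%. The windows of the 5 members with a match follow, 5′ to 3′ on the strand of the gene, with the matched letters in capitals (AACGTG is CACGTT on the other strand).
Per1, chr11:69098699-69098948, plus strand: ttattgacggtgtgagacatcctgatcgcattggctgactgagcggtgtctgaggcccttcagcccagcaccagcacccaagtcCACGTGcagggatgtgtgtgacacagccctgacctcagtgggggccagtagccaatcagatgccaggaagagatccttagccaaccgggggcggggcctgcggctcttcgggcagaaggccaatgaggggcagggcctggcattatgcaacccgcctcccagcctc
Cry1, chr10:85185055-85185304, minus strand: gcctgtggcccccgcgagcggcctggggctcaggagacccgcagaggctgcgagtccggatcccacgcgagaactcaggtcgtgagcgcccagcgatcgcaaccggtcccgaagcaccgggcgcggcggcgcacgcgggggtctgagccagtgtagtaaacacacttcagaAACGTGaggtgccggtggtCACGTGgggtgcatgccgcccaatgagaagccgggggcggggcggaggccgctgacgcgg
Cry2, chr2:92434070-92434319, minus strand: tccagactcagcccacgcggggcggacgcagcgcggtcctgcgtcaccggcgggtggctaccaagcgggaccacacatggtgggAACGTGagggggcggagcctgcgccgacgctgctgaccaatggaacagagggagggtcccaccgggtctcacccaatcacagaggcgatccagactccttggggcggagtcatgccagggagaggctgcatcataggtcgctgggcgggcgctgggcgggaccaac
Nr1d1, chr11:98775378-98775627, minus strand: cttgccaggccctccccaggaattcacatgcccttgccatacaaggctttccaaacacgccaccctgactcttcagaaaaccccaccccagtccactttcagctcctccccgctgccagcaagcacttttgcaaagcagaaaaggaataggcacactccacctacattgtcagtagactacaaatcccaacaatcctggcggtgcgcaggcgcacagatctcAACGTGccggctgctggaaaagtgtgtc
Per3, chr4:151044666-151044915, minus strand: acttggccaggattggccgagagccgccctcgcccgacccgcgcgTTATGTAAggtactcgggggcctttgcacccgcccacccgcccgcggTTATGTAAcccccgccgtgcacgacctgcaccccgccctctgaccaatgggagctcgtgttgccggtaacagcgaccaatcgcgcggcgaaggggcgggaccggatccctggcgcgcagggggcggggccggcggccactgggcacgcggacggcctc
The E-box lay 166 to 161 bases before a start of *Per1* that lies within the annotated span of the gene, and the other *Per1* window held no match. The *Cry1* E-box lay 60 to 55 bases before the start. The *Per3* window held 2 separate D-boxes, at 205 to 198 and 158 to 151 bases, and the *Nr1d1* match was 28 to 23 bases before the start. The matches are letters only, and binding was not measured.

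The order of the members was read on TPM, which is scaled by transcript length. In control cells the nuclear receptor genes were the most abundant, *Nr1d1* with 31.0 ± 3.62 TPM and *Nr1d2* with 28.7 ± 2.90 TPM (SD, n = 3). They were followed by *Dbp* with 19.3 ± 1.34, *Per1* with 17.4 ± 2.81 and *Clock* with 17.1 ± 0.217 TPM. *Cry1* had 11.1 ± 0.670, *Arntl* 10.8 ± 1.01, *Per3* 9.81 ± 0.678, *Cry2* 8.96 ± 0.221 and *Per2* 6.67 ± 0.977 TPM. The libraries of *Nr1d1* and *Nr1d2* overlapped, as did those of *Dbp* with *Per1*, *Per1* with *Clock*, *Cry1* with *Arntl* and *Arntl* with *Per3*. The libraries did not overlap between *Nr1d2* and *Dbp*, *Clock* and *Cry1*, *Per3* and *Cry2*, and *Cry2* and *Per2*. For *Per3* and *Cry2* the lowest and the highest library were close, at 9.18 and 9.09 TPM, and in *Phf2* KO cells these genes overlapped. In *Phf2* KO cells the receptors again led, with 28.9 ± 2.04 TPM for *Nr1d1* and 26.9 ± 1.58 TPM for *Nr1d2* (SD, n = 3), and *Per2* was again the lowest with 6.72 ± 0.358 TPM.

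The activators were at near equal levels in the groups. *Arntl* (ENSMUSG00000055116, chromosome 7, 113207465 to 113314126) was at 15.0, 16.1 and 16.5 CPM in control replicates 1, 2 and 3, and at 14.5, 16.2 and 15.6 CPM in *Phf2* KO replicates 1, 2 and 3. The groups overlapped, and the log2 fold change was -0.04 (standard error 0.091, 95% interval from -0.23 to 0.16, adjusted p = 0.887). *Clock* (ENSMUSG00000029238, chromosome 5, 76209868 to 76304792), which encodes its partner, was at 79.4, 86.2 and 76.5 CPM in control and 79.4, 81.3 and 86.9 CPM in *Phf2* KO libraries. Its log2 fold change was 0.03 (95% interval from -0.09 to 0.15, adjusted p = 0.824). This was the narrowest interval of the 10, and its bounds allow a change of at most 1.11-fold.

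**Figure D1:**
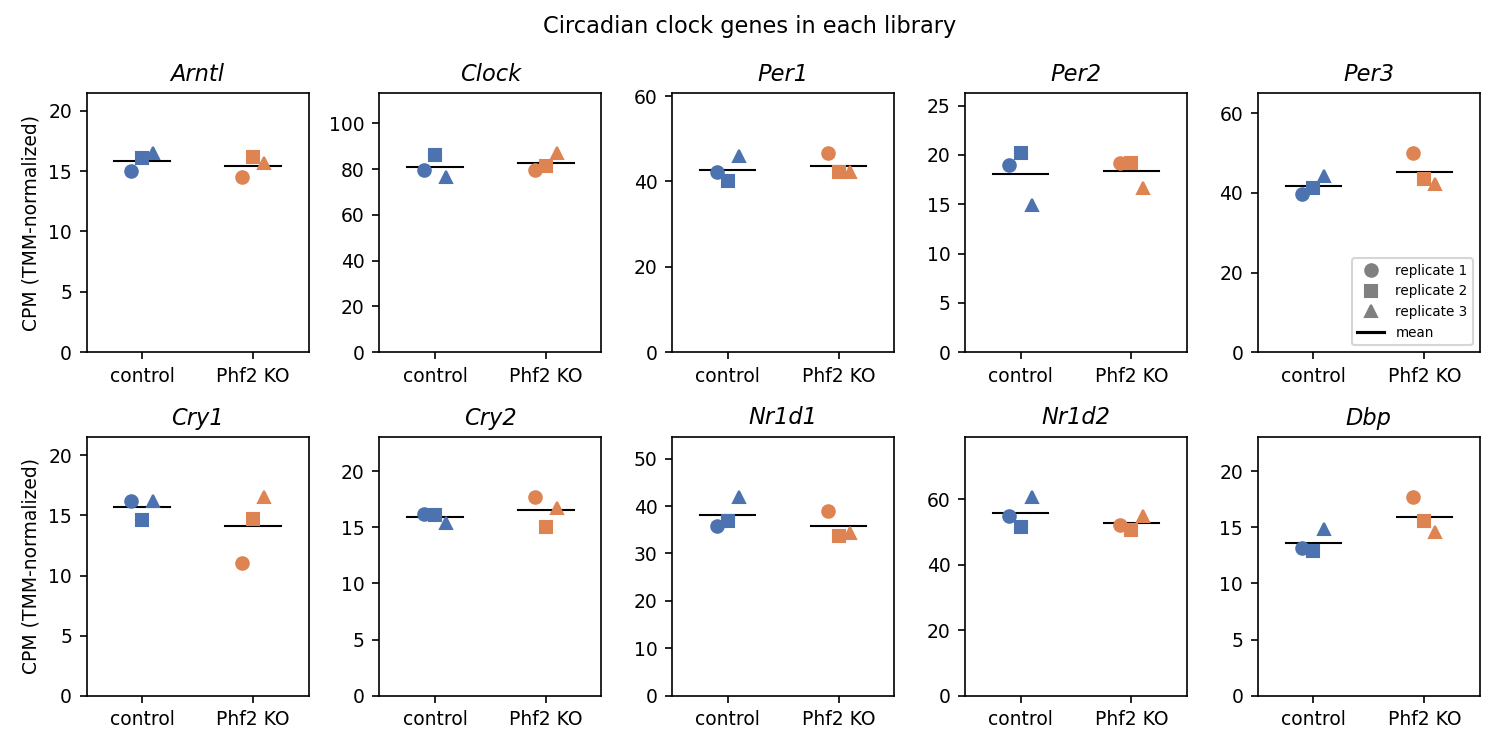
Level of the 10 clock genes in each library, as TMM-normalized CPM on axes that start at 0; points are libraries, with a shape for each replicate number, and bars are means of 3. In each panel the control and *Phf2* KO points overlap, and the *Cry1* point of *Phf2* KO replicate 1 lies at 11.0 CPM, below the other 5.

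Among the *Per* genes, whose proteins carry the inhibitory complex, *Per1* (ENSMUSG00000020893, chromosome 11, 69095217 to 69109960) was at 42.3, 40.1 and 46.0 CPM in control and 46.6, 42.3 and 42.2 CPM in *Phf2* KO replicates 1, 2 and 3. *Per2* (ENSMUSG00000055866, chromosome 1, 91415982 to 91459324) was at 19.0, 20.2 and 14.9 CPM in control and 19.2, 19.2 and 16.7 CPM in *Phf2* KO libraries. For both genes the estimates were close to 0, with log2 fold changes of 0.03 (95% interval from -0.11 to 0.17, adjusted p = 0.872) and 0.02 (95% interval from -0.22 to 0.26, adjusted p = 0.949). *Per2* was lowest in replicate 3 of both groups. *Per3* (ENSMUSG00000028957, chromosome 4, 151003652 to 151044665), which bears the 2 D-boxes above, was at 39.7, 41.2 and 44.1 CPM in control and 50.0, 43.6 and 42.3 CPM in *Phf2* KO libraries. *Phf2* KO replicate 1 was the highest and the other 2 *Phf2* KO libraries lay within or next to the control values. The log2 fold change was 0.12 (standard error 0.072, 95% interval from -0.03 to 0.27, adjusted p = 0.405), and 0.04 without *Phf2* KO replicate 1.

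The cryptochromes, which inhibit the activators directly, both had a wider spread in *Phf2* KO than in control libraries (not tested). *Cry1* (ENSMUSG00000020038, chromosome 10, 85131700 to 85185064) was at 16.2, 14.6 and 16.2 CPM in control and 11.0, 14.7 and 16.6 CPM in *Phf2* KO replicates 1, 2 and 3. Its coefficient of variation was 5.87% in control and 20.0% in *Phf2* KO libraries, where counting of about 220 read pairs alone gives 6.74%. The log2 fold change of -0.15 (standard error 0.131, 95% interval from -0.44 to 0.13, adjusted p = 0.600) was -0.003 without *Phf2* KO replicate 1. *Cry2* (ENSMUSG00000068742, chromosome 2, 92403646 to 92434043) was at 16.2, 16.1 and 15.4 CPM in control and 17.7, 15.0 and 16.8 CPM in *Phf2* KO libraries, with a log2 fold change of 0.05 (95% interval from -0.14 to 0.25, adjusted p = 0.823). The coefficient of variation of *Cry2* was 3.03% in control and 8.27% in *Phf2* KO libraries, where counting alone gives 6.45%.

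The nuclear receptor genes had estimates below 0. *Nr1d1* (ENSMUSG00000020889, chromosome 11, 98767932 to 98775333) was at 35.9, 36.8 and 42.0 CPM in control and 39.0, 33.7 and 34.4 CPM in *Phf2* KO replicates 1, 2 and 3, a log2 fold change of -0.10 (95% interval from -0.26 to 0.07, adjusted p = 0.559). *Nr1d2* (ENSMUSG00000021775, chromosome 14, 18204054 to 18239127) was at 55.0, 51.4 and 60.7 CPM in control and 52.2, 50.7 and 54.9 CPM in *Phf2* KO libraries, a log2 fold change of -0.08 (95% interval from -0.22 to 0.06, adjusted p = 0.559). The groups overlapped for both.

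*Dbp* (ENSMUSG00000059824, chromosome 7, 45705088 to 45710203) was at 13.1, 12.9 and 14.9 CPM in control and 17.7, 15.6 and 14.6 CPM in *Phf2* KO replicates 1, 2 and 3. Of the *Phf2* KO libraries, 2 were above every control library, and replicate 3 was just under control replicate 3. The mean was 13.6 ± 1.07 CPM in control and 16.0 ± 1.60 CPM in *Phf2* KO cells (SD, n = 3), and the estimate was a log2 fold change of 0.23, with a standard error of 0.104 and an adjusted p of 0.243. Its 95% interval, from 0.01 to 0.45, allows a rise of up to 1.37-fold. *Dbp* was the 1 member with an unadjusted p under 0.05, against 19.4% of the genes tested, and this was not adjusted for the number of genes. Its estimate was 0.15 without *Phf2* KO replicate 1 and 0.29 without control replicate 3.

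**Figure D2:**
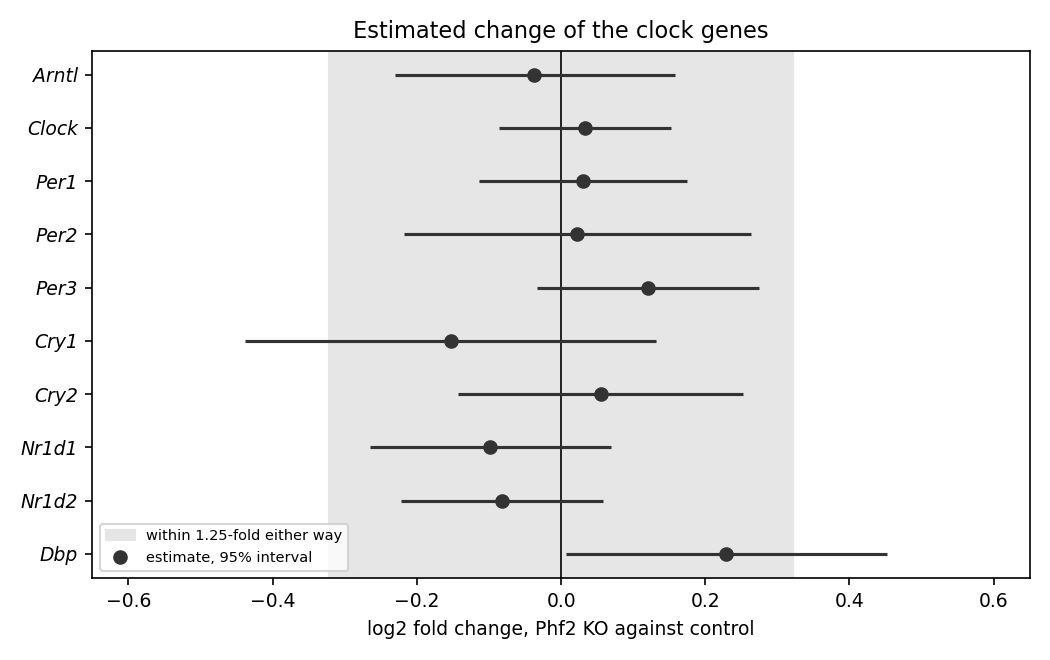
Estimated log2 fold change of each clock gene, *Phf2* KO against control (points), with its 95% interval from the quasi-likelihood fit (lines); the grey band marks a 1.25-fold change either way. The intervals of *Cry1* and *Dbp* reach beyond the band, to 1.35-fold and 1.37-fold, and the other 8 lie inside it.

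Over the 10 members, 6 estimates were above 0 and 4 below, with a median log2 fold change of 0.03, against -0.001 for all genes tested. Their summed level was 332 to 347 CPM in the control libraries and 332 to 347 CPM in the *Phf2* KO libraries. No member had groups of libraries that did not overlap, where 25.1% of the genes tested did, and 29.7% of those in the CPM range of the members. The 8 of 10 intervals within 1.25-fold are near the 73.6% among the 5930 genes in that range. No member passed the threshold with exactTest, DESeq2 or limma-voom either, and the number with an unadjusted p under 0.05 was 0, 1 and 0 with these tests. A p that misses the threshold does not show that the groups are equal, and the intervals give the sizes that remain possible.

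**Figure D3:**
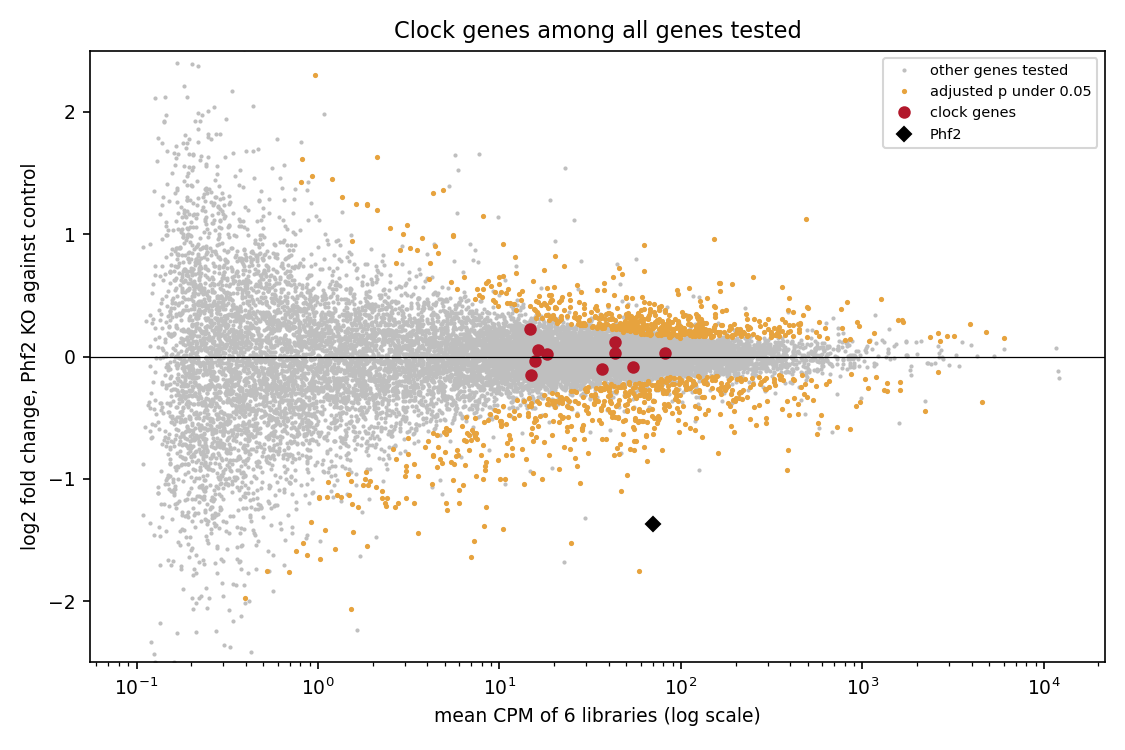
Log2 fold change, *Phf2* KO against control, against the mean CPM of the 6 libraries (log scale) for the 17310 genes tested; orange points have an adjusted p under 0.05, red points are the 10 clock genes and the black diamond is *Phf2*, and 27 genes beyond 2.5 on the vertical axis are not drawn. The clock genes lie between -0.15 and 0.23, and *Phf2* at -1.37.

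Libraries of equal replicate number were then set against each other. *Nr1d2* was the only member that had the same direction in all 3 pairs, with log2 differences of -0.07, -0.02 and -0.15 (*Phf2* KO minus control) in pairs 1, 2 and 3. This is 1 of 10, where 42.4% of the genes tested, and 47.6% of those in the CPM range of the members, kept 1 direction. In pair 1, 7 members were higher in the *Phf2* KO library and 3 lower, with *Clock* counted as higher though at 79.4 CPM in both libraries after rounding. In pair 2 the numbers were 5 and 5, and in pair 3, 4 and 6. The widest difference within a pair was that of *Cry1* in pair 1, at -0.55, with 0.01 and 0.03 in the other pairs. *Dbp* had differences of 0.43, 0.27 and -0.02, and *Per3* of 0.33, 0.08 and -0.06. *Nr1d1* ran from 0.12 in pair 1 to -0.29 in pair 3. *Clock* had a difference that rounds to 0.0 in pair 1 and 0.18 in pair 3.

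**Figure D4:**
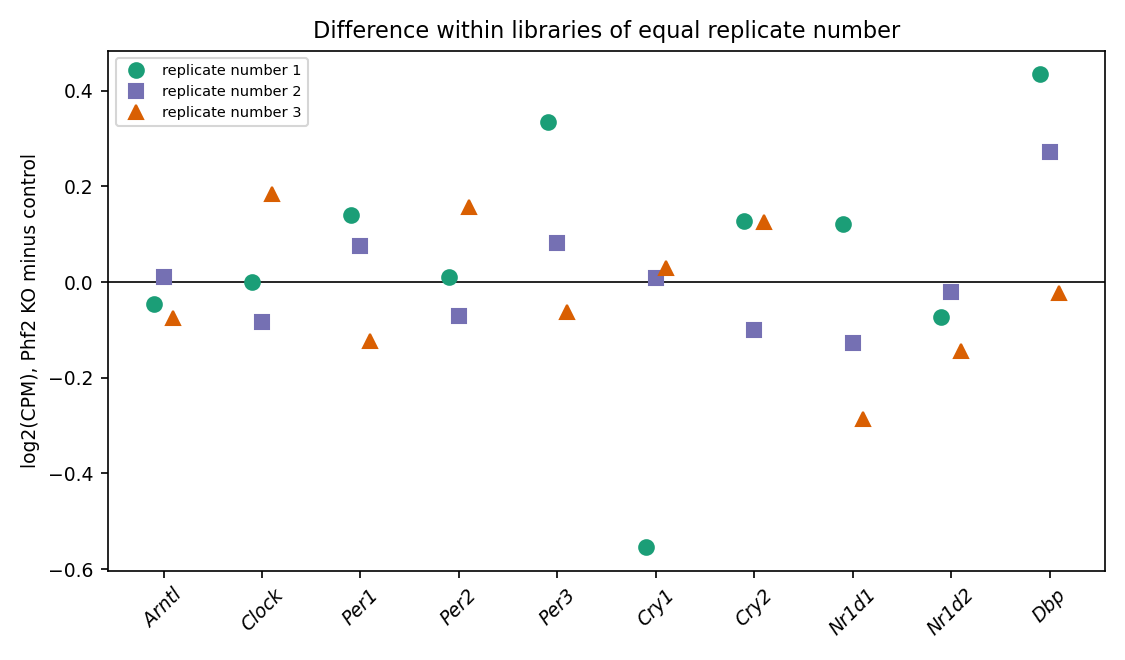
Difference of log2(CPM), *Phf2* KO minus control, within the libraries of equal replicate number, for each clock gene (shape and color give the number). *Nr1d2* has 3 points below 0; the points of the other members fall on both sides of 0 or, for *Clock* in pair 1, on it.

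The deviations from the group mean were compared in the same way. Across the 10 members, the deviations of same-numbered libraries had Pearson correlations of -0.32, 0.26 and 0.12 for numbers 1, 2 and 3, and the other pairs of libraries ran from -0.33 to 0.31. Over the 10923 genes whose mean reached 5 CPM, the same-numbered libraries gave 0.162, 0.377 and 0.270. These are correlations across genes, which share each library and its depth and are not independent. In the paired form of the test, with a block for each replicate number, 0 of the 10 members passed the threshold, with adjusted p-values from 0.255 for *Dbp* to 0.895 for *Per2*, where 7.60% of the genes tested passed. *Per1*, *Per3*, *Nr1d1* and *Dbp* shared a pattern that the numbers do not carry. They were highest in replicate 3 among the control libraries and in replicate 1 among the *Phf2* KO libraries, as were 9.04% of the genes tested. This pattern was chosen after the values were seen. *Arntl* was lowest in *Phf2* KO replicate 1 and *Cry1* as well.

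The clock genes were also grouped by a textbook division, after the element taken to drive their daily rhythm. The E-box genes were *Per1*, *Per2*, *Per3*, *Cry2*, *Nr1d1*, *Nr1d2*, *Dbp*, *Tef*, *Hlf*, *Bhlhe40*, *Bhlhe41* and *Ciart*. The ROR element genes were *Arntl*, *Clock*, *Npas2*, *Cry1* and *Nfil3*, and the groups peak at different times of day. Of the 11 E-box genes tested, 6 had estimates above 0 and 5 below, and the median was 0.02 (log2 fold change). Of the 4 ROR element genes tested, 2 were above 0 and 2 below, with a median of -0.002. One of them, *Cry1*, also had an E-box and CACGTT in its window above, so the groups are not exclusive by element. *Per3*, listed with the E-box genes, had D-boxes but neither the E-box nor CACGTT in its window. No gene of either group passed the threshold, where 6.48% of the genes tested did, so few or none would be found in groups of this size at that share. Within each library, the mean log2(CPM) of the E-box genes exceeded that of the ROR element genes by 0.50, 0.41 and 0.58 in control and by 0.64, 0.50 and 0.39 in *Phf2* KO replicates 1, 2 and 3. The *Phf2* KO libraries thus lay on both sides of the control libraries. The log2 ratio of *Dbp* to *Arntl* CPM was -0.19, -0.32 and -0.15 in control and 0.29, -0.06 and -0.10 in *Phf2* KO libraries. The groups did not overlap (not tested), but the nearest libraries were close, at -0.15 and -0.10. For *Dbp* and for *Arntl* alone the groups overlapped. Of the single genes tested, 25.1% had groups that did not overlap, and the share among other ratios was not computed. The ratio of *Nr1d1* to *Arntl* was 1.26, 1.20 and 1.35 against 1.43, 1.06 and 1.14, with overlap.

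Other genes of the clock were counted in 4 lists of 46 genes, of which 42 were tested. Of these, 1 rose and 3 fell past the threshold, against 3.22% and 3.26% of the genes tested. Among 10 further factors of the loop, such as *Bhlhe40* and *Bhlhe41*, which encode repressors at E-boxes, and *Tef*, a relative of *Dbp*, 8 were tested and 0 passed, with a median log2 fold change of -0.15. None of the 8 had an unadjusted p under 0.05. *Rora* was at 0.438 to 2.20 CPM in control and 0.680 to 1.14 CPM in *Phf2* KO libraries, and *Npas2* and *Hlf*, a paralog of *Clock* and a relative of *Dbp*, were under 0.3 CPM in every library. *Rora* passed the threshold only in the fit without control replicate 1 (log2 fold change -1.25, adjusted p = 0.043).

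Of 15 enzymes and partners that modify clock proteins, such as the kinases of PER and the ubiquitin ligases of CRY, 14 were tested and 1 passed. *Usp2* (ENSMUSG00000032010, chromosome 9, 44067021 to 44095627), which encodes a deubiquitinase and is itself a clock output, was at 14.0, 15.2 and 12.9 CPM in control and 9.79, 9.60 and 10.3 CPM in *Phf2* KO replicates 1, 2 and 3. The groups did not overlap, and it fell by 0.50 on the log2 scale (standard error 0.104, adjusted p = 0.0103). It was not past the threshold without control replicate 2 (adjusted p = 0.0727) or without *Phf2* KO replicate 2 (adjusted p = 0.0525).

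Of 9 output genes, 8 were tested, 1 rose and 1 fell. *Cdkn1a* (ENSMUSG00000023067, chromosome 17, 29090976 to 29100727), which encodes the cell cycle inhibitor p21 and is repressed by REV-ERB alpha, was at 1027, 1070 and 975 CPM in control and 682, 689 and 663 CPM in *Phf2* KO libraries, and it fell by 0.60 on the log2 scale (standard error 0.041, adjusted p = 3.45e-06). *Cdkn1a* is also induced by p53 and by myogenic factors. *Pdk4* (ENSMUSG00000019577, chromosome 6, 5483351 to 5496309), a kinase that restrains pyruvate oxidation, was at 49.3, 42.6 and 49.7 CPM in control and 61.4, 54.7 and 58.8 CPM in *Phf2* KO libraries. It rose by 0.30 on the log2 scale (standard error 0.069, adjusted p = 0.0164), but was not past the threshold without control replicate 2 (adjusted p = 0.0950), *Phf2* KO replicate 1 (0.0613) or *Phf2* KO replicate 3 (0.0745), nor in the limma fits of TPM. *Wee1* and *Nampt*, direct E-box targets of the clock, had log2 fold changes of -0.16 (95% interval from -0.41 to 0.10) and -0.05 (95% interval from -0.16 to 0.05) and did not pass.

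Of 12 genes of the signals that reset the clock, namely immediate early, CREB-dependent, glucocorticoid and temperature-linked genes, 12 were tested and 1 passed. *Sik1* (ENSMUSG00000024042, chromosome 17, 31844250 to 31855804), a kinase induced through CREB that limits resetting, was at 59.6, 58.6 and 54.6 CPM in control and 45.7, 41.4 and 44.6 CPM in *Phf2* KO libraries, and fell by 0.39 on the log2 scale (standard error 0.060, adjusted p = 0.00134). In the limma fits of TPM its adjusted p was 0.0677 to 0.112. With the replicate block 2 of the 12 passed, *Sik1* and the glucocorticoid receptor gene *Nr3c1* (log2 fold change 0.16, adjusted p = 0.036 with the block and 0.071 without it). Without control replicate 3 the number was 3, with *Fos* (log2 fold change 0.64) and *Egr1* (0.34) in addition to *Sik1*.

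**Figure D5:**
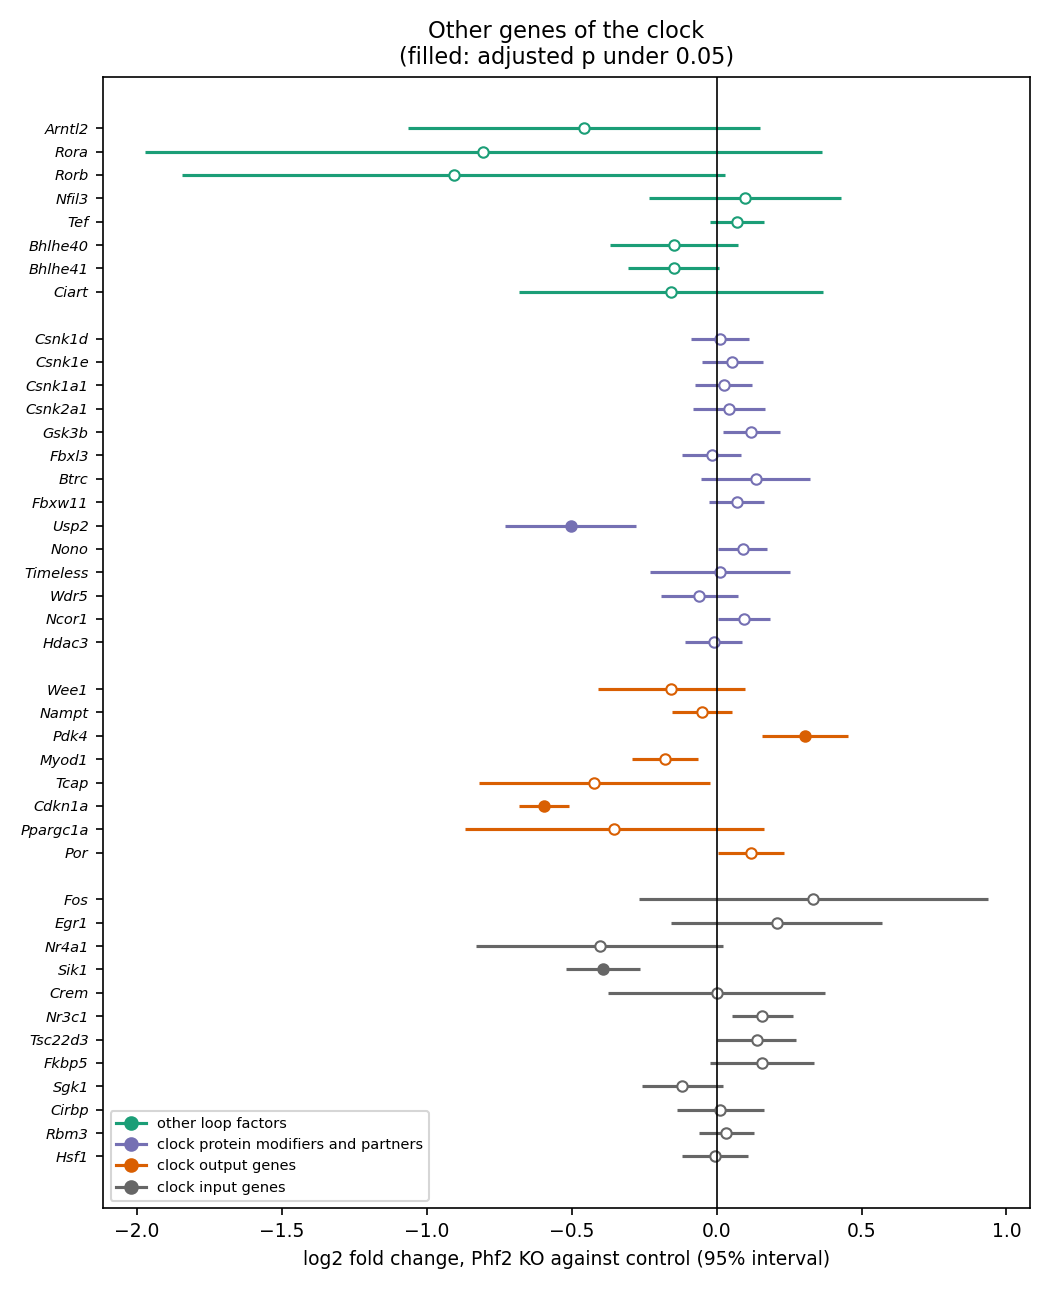
Log2 fold change, *Phf2* KO against control, with 95% intervals for the 42 tested genes of 4 lists; filled points have an adjusted p under 0.05 and colors give the list. *Usp2*, *Pdk4*, *Cdkn1a* and *Sik1* are the 4 filled points, and *Rora* and *Rorb* have wide intervals at levels under 2.5 CPM.

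Some members share their span with another gene. *Nr1d1* and *Thra*, the thyroid hormone receptor alpha gene on the opposite strand, overlap at their 3′ ends over 1075 bases, and *Dbp* and *Sphk2* over 737 bases, also on opposite strands. The kit marks strand, but whether counting used it is not given in the sources used here, so reads in these overlaps cannot be assigned with certainty. *Thra* was at 127, 117 and 123 CPM in control and 146, 139 and 135 CPM in *Phf2* KO libraries, a log2 fold change of 0.19 (adjusted p = 0.0283). This call was lost in each fit without 1 library (adjusted p from 0.0555 to 0.171), and on log2(TPM + 1) the estimate was -0.14. *Sphk2* had a log2 fold change of -0.03 and an adjusted p of 0.907. The noncoding genes *Gm45355* at *Arntl* and *D930015M05Rik* at *Cry2* were on the other strand and had means under 0.3 CPM in both groups. *Camta1*, which spans *Per3*, and *Ube2n-ps1* and *Gm43658* within *Clock* were on the same strand, with means of at most 5.20 CPM.

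The genes whose log2(CPM) ran most like that of *Dbp* over the 6 libraries, among the same 10923 genes, were *R3hcc1*, *Fto*, *Tor1a*, *Nup37* and *Ppp1ccb*, with Pearson correlations from 0.980 to 0.990. For *Arntl* they were *Hsd17b12*, *Dipk2a*, *Rbm10*, *Slc19a2* and *Mospd2*, with correlations from 0.984 to 0.991. Of the other members, *Per3* had the highest correlation with *Dbp*, 0.94, and *Cry1* the lowest, -0.71. With 6 points that share libraries and groups, these values are a description.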

How the data were processed

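RNA-seq of 6 libraries was analysed, 3 of control and 3 of *Phf2* KO cells. Per the labels and the study's methods, HISAT2 was used by the authors for alignment to mm10 and StringTie for counting, and versions, annotation and strand setting are not given in the sources used here. Values of the deposited matrix are estimated counts, whole and not scaled to depth. Covered bases per count were 74.98 to 74.99 (median over single-transcript genes with 500 counts or more), so the counts are not tallies of reads, and a pair of 150 bp reads adds about 4. TPM, a signal normalized per library by the authors, was read from the deposited per-library tables for levels between genes, from the rows of reference genes. Coverage in these deposited tables served only to work out the count unit. Gene positions were read from the same deposited tables (mm10). GENCODE M21 gave the transcript lengths for the count unit, and promoter windows are from RefSeq.

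After filterByExpr with a minimum count of 10 and TMM scaling, genes were tested with edgeR 4.0.16 in R 4.3.3 (glmQLFit, robust, prior count 0.125), with Benjamini-Hochberg adjustment over 17310 genes and a threshold of 0.05. The study names exactTest, which was run as an alternative. Standard errors are the log2 fold change divided by the square root of F, and 95% intervals are for single genes. The quasi-likelihood test was checked on simulated data. Precision is limited by 3 libraries a group; an exact permutation test of 3 against 3 cannot go below 0.1 and was not used. The alternatives were exactTest, DESeq2 1.42.0, limma-voom and limma on TPM (limma 3.58.1), other normalizations and filters, counts divided by 4, the replicate number as a block and leaving out each library.

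Libraries of equal replicate number were set against each other as a description, and the main test used no pairing. The study describes no pairing. Over 10923 genes the deviations of same-numbered libraries had correlations of 0.162, 0.377 and 0.270. Libraries of different numbers had -0.345 to 0.130. Deviations from a group mean cancel within the group, so these values depend on each other and do not establish a pairing. For 1 gene of the lists the values are not reported here, and it was left out of the list counts. Members, lists and tests were chosen with earlier results of these data known. Named were the members, *Phf2*, list genes past the threshold (at most 5 a list), genes that overlap a member, and the 5 genes most like *Dbp* and *Arntl*; *Bhlhe40*, *Bhlhe41*, *Tef*, *Rora*, *Rorb*, *Npas2*, *Hlf*, *Wee1*, *Nampt*, *Nr3c1*, *Myod1*, *Fos* and *Egr1* were named after their values were seen.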

Additional observations from a re-analysis of the deposited data

How the results depend on the processing

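The number of clock members past the threshold was 0 in all 19 alternatives, and *Phf2* kept its direction and its call in all of them. The block changed no call of a member. Over all genes, the 1122 past the threshold became 157 and 151 in the limma fits of TPM with a pseudocount of 1 and 0.1, 11 with no filter on TPM, 1527 with DESeq2, 1316 with the replicate block, and 468 to 1039 without 1 library, where 1 group holds fewer samples. The counts of other clock genes moved too. The total of 4 became 2 in the limma fits of TPM with a pseudocount of 1 or 0.1, 1 with no filter, 6 with DESeq2, 5 with the CPM filter, the replicate block and counts divided by 4, and 2 to 6 without 1 library. For protein modifiers, the 1 gene became 0 on TPM with no filter and was 0 to 1 without 1 library. For output genes, the 2 became 1 in each of the 3 TPM fits, 3 (with *Myod1*) with DESeq2, the CPM filter and counts divided by 4, and 1 to 2 without 1 library. For input genes, the 1 became 2 with DESeq2 and with the replicate block and 0 in each of the 3 TPM fits, and was 1 to 3 without 1 library. The loop factors had 0 to 1 without 1 library. The members with 1 direction in all pairs were 2 with upper quartile scaling and 3 to 5 without 1 library, where only 2 pairs are left by construction. Members whose groups did not overlap numbered 0 to 2 without 1 library, where 32.6% to 36.4% of all genes did not: *Clock* and *Nr1d2* without control replicate 2, *Per3* and *Dbp* without control replicate 3, *Nr1d1* without *Phf2* KO replicate 1, *Cry2* without *Phf2* KO replicate 2 and *Dbp* without *Phf2* KO replicate 3. The median of the ROR element genes ran from -0.057 to 0.028 without 1 library, and that of the E-box genes from -0.02 to 0.04. Estimates near 0 changed sign without 1 library. *Arntl* ran from -0.078 to 0.007, *Clock* from -0.006 (in 2 fits) to 0.082, *Per1* from -0.018 to 0.082 with another fit at -0.014, and *Per2* from -0.099 to 0.110 with others at -0.010 and -0.011. The adjusted p of each estimate that changed sign was at least 0.689. *Thra* changed to -0.136 on log2(TPM + 1), with and without the filter, and to -0.137 on log2(TPM + 0.1). Where no cause is given, the cause was not tested. With about 170 read pairs in the lowest library of a member and 3 libraries a group, precision is limited to the intervals given.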
